A study of Rattus norvegicus with 15 samples.

Results

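The miRNAs miR-15b, miR-16 and miR-195 were followed across adult rat cardiomyocytes damaged by the anthracycline doxorubicin (DOX) or by myocardial infarction (MI). They were taken by name, as the probes rno-miR-15b, rno-miR-16 and rno-miR-195, and make up 3 of the 420 rat miRNA probes on the panel. Their levels were measured with the nCounter assay, which counts single miRNA molecules, each joined to a tag that is read as a coloured barcode, in 1 lane per sample. There were 15 samples in 5 groups of 3, and the labels name Sprague Dawley rats and isolated adult cardiomyocytes throughout. In vitro DOX cells were healthy cardiomyocytes exposed to DOX in culture for 6 h, and vehicle cells were exposed to saline for the same 6 h. In vivo DOX cells came from rats brought to heart failure by repeated DOX injections. MI cells came from rats whose left coronary artery had been tied, leading to failure after 4 weeks. Age-matched control cells came from healthy rats. Per the labels' protocols, the cells of all groups were plated on laminin for 1 h and only attached, viable cells were extracted, so cells lost in that step were not measured. Nothing in the labels tells whether samples of 1 group were taken from different rats or dishes. The p-values therefore speak of the spread among the samples at hand, which may be technical.

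A miRNA binds mRNAs mainly through its seed, the bases from the second to the eighth counted from its 5′ end, and lowers the output of those mRNAs. miRNAs with the same seed form a family and can bind many of the same mRNAs. The miR-15 family is known for binding mRNAs of cell-cycle genes such as cyclins D1 and E1 and of the survival gene Bcl2. In the mouse heart miR-195 is known to rise after birth and to restrain cardiomyocyte division, and blocking the family has been reported to limit infarct damage in mice. miR-16 is found at high levels in many cell types, including red blood cells.

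The mature sequences are shown because the members share a seed and differ after it, and because the close match of miR-16 and miR-195 bears on how far the probes can be read apart. They are RefSeq's for the build GRCr8, written 5′ to 3′, with the seed in capitals.
rno-miR-15b, chr2:155555197-155555218, plus strand: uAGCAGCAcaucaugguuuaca
rno-miR-16, chr2:155555343-155555364, plus strand: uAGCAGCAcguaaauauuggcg
rno-miR-195, chr10:55450509-55450529, plus strand: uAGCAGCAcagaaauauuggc
rno-miR-322, chrX:137726198-137726219, minus strand: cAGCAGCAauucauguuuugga
rno-miR-497, chr10:55450172-55450193, plus strand: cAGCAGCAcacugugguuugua

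All 3 members matched an entry, and 5 of the 724 mature rat miRNAs in the RefSeq table carry this seed. The other 2 are miR-322 and miR-497, which are also on the panel. miR-16 and miR-195 have the same base at 19 of the first 21 positions, and differ, counted from 1 at the 5′ end of miR-16, by G10A and U11G. miR-15b shares 14 of 22 positions with miR-16 and 14 of 21 with miR-195. The hairpins of Mir15b and Mir16 lie 51 bases apart on chromosome 2, inside the annotated gene Smc4, which encodes a condensin subunit. The hairpins of Mir497 and Mir195 lie 255 bases apart on chromosome 10, where the annotation has no other gene across them. Cross-reading between the miR-16 and miR-195 probes was not tested. The within-lane values given further on place the miR-195 count at 1.99% to 6.85% of the miR-16 count of the same lane.

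Rat miRNA counts per lane were 71522 to 104987 for in vitro DOX, 122854 to 137746 for vehicle, 54608 to 133965 for in vivo DOX, 40381 to 77375 for MI and 36977 to 62663 for age-matched controls. Levels are given as normalized CPM, each probe's share of the rat miRNA counts of its lane on the usual CPM scale, after TMM scaling. Lane background was the mean plus 2 SD of the 8 negative controls, and 109 miRNAs above it in at least 3 of the 15 lanes were tested together in edgeR. Samples within a group did not spread alike. The chi-square per degree of freedom between samples over probes was 1.60 to 1.74 for vehicle and 1.56 to 1.89 for age-matched controls, little above counting error. It reached 42.2 between in vitro DOX samples, 31.6 between in vivo DOX samples and 17.6 between MI samples. In vitro DOX sample 3, in vivo DOX sample 1 and MI sample 3 stood apart from the rest of their groups, so changes of the members and of miR-322 that rest on them are given with and without them. By their file names, the in vitro DOX lanes form 1 set and all other lanes lie outside it, so DOX in culture and that set cannot be told apart. All 5 miRNAs of the cardiomyocyte list on the panel lay above background in every lane, although the authors treated the counts of 1 of them, miR-208, as probe background. So did miR-126, which is known from endothelial cells. The red blood cell miRNAs miR-451 and miR-144 lay above background in no lane.

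miR-16 was by far the most counted member, with 699 to 3080 counts per lane and ranks 7 to 14 among the 420 probes. miR-15b had 26 to 269 counts and lay above background in 15 of 15 lanes. miR-195 had 14 to 147 counts and lay above background in 10 of 15 lanes, comprising all 3 lanes of in vitro DOX, of vehicle and of MI, 1 of 3 in vivo DOX lanes and 0 of 3 age-matched control lanes. Its counts in the age-matched controls were 14, 26 and 25, against lane backgrounds of 19.6, 36.2 and 29.6 counts. Changes of miR-195 against that group are therefore set against a level that was not above background. Lane background was 11.8 to 21.1 counts in MI. It was 33.3 to 47.2 in vehicle, 41.7 to 44.8 in in vitro DOX and 37.5 to 43.9 in in vivo DOX. So 33 miR-195 counts passed in MI sample 3, while 37 and 39 did not in in vivo DOX samples 2 and 3. Probes differ in efficiency, so counts of different members give no ratio of abundance. Across the 15 samples, the SD of the log2 level was 0.29 for miR-16, 0.54 for miR-15b and 0.73 for miR-195. Of the tested miRNAs, 6.42% had a smaller SD than miR-16, 55.0% a smaller one than miR-15b and 79.8% a smaller one than miR-195.

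**Figure D1:**
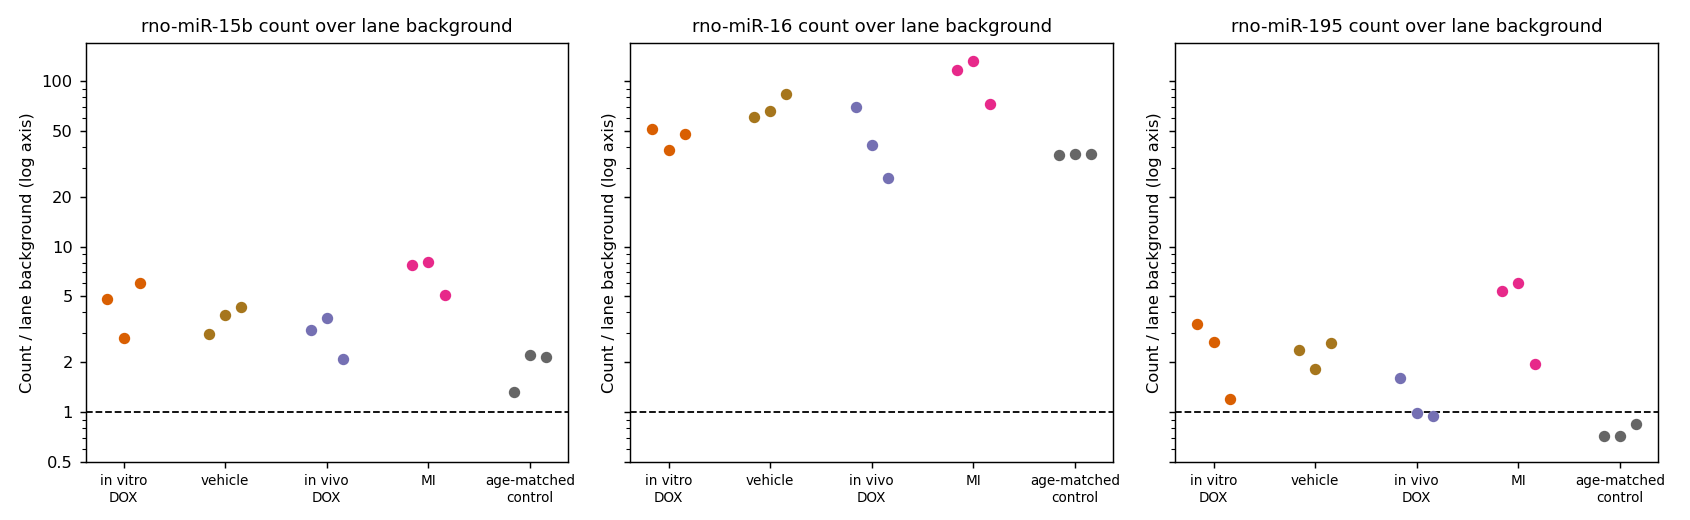
Count of each member divided by the background of its lane (log axis), 1 point per sample in 5 groups of 3, with the dashed line at the background. All points of miR-15b and miR-16 lie above the line, and those of miR-195 lie below it in all 3 age-matched controls and in 2 of 3 in vivo DOX samples.

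The first comparison asked how the members stand in cardiomyocytes from infarcted hearts. All 3 members rose in MI cells against age-matched controls, miR-195 by 3.13-fold, miR-15b by 1.98-fold and miR-16 by 1.60-fold. That is 3 of 3 members called at an adjusted p under 0.05, while 37.6% of the 109 tested miRNAs were called, 15.6% as higher. Groups were apart, with no overlap of samples, for 3 of 3 members and for 57.8% of all tested miRNAs. The median log2 change was -0.03 over all tested miRNAs. On the same TMM scale the 13 control probes, 8 negative controls and 5 spike-in probes, had a median log2 change of -0.96 (range -2.06 to -0.07).

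miR-195 had 1522, 1635 and 655 normalized CPM in MI samples 1 to 3, against 385, 413 and 418 in the age-matched controls. MI sample 3 was well below the other 2 MI samples, and the groups did not overlap. The means were 1271 ± 536 in MI and 405 ± 17.8 in age-matched controls (SD, n = 3 each), and the log2 change was 1.65 with an SE of 0.37 (edgeR quasi-likelihood, Benjamini-Hochberg adjusted p = 0.00171). With each control lane set to its background, 495 to 575 normalized CPM, the geometric mean in MI was 2.20-fold that of the controls. This is a point value without an interval, and MI sample 3 was the nearest to those backgrounds. Without MI sample 3 the log2 change was 1.95 (adjusted p = 0.000217).

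miR-15b had 2188, 2201 and 1728 normalized CPM in MI samples, against 715, 1271 and 1070 in age-matched controls. Every MI sample was above every control, and control sample 1 was the lowest of the 6, with 26 counts. The means were 2039 ± 270 in MI and 1019 ± 281 in age-matched controls (SD, n = 3 each), a log2 change of 0.98 with an SE of 0.30 (edgeR adjusted p = 0.0138). The call was lost without MI sample 2 (log2 change 0.92, adjusted p = 0.0552) and without control sample 1 (0.83, adjusted p = 0.0589).

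miR-16 had 32707, 35831 and 24602 normalized CPM in MI samples, against 19224, 20764 and 18073 in age-matched controls. Again the groups were apart, and MI sample 3 was the lowest of its group. The means were 31047 ± 5796 in MI and 19354 ± 1350 in age-matched controls (SD, n = 3 each), a log2 change of 0.68 with an SE of 0.26 (edgeR adjusted p = 0.0395). This call was the least firm of the 3 members' calls. It was lost when any 1 of MI samples 1 and 2 or of the 3 controls was left out, with log2 changes of 0.57 to 0.74 and adjusted p of 0.0698 to 0.183, and held without MI sample 3 (0.82, adjusted p = 0.0229).

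Markers of other cells moved in the same comparison. miR-126, 1 of 2 endothelial markers listed and the only one on the panel, had 131043, 117881 and 46623 normalized CPM in MI samples, against 20104, 21447 and 22102 in age-matched controls. Among the MI samples it was lowest in sample 3, as were all 3 members and miR-322. The 4 fibroblast-associated miRNAs on the panel summed to 9551 to 13398 normalized CPM in MI and 4373 to 4734 in age-matched controls. All 3 of them that were tested rose (edgeR adjusted p under 0.05), and miR-214 lay above background in no lane. The 5 leukocyte markers on the panel summed to 5361 to 17195 in MI and 5656 to 5868 in age-matched controls, with 1 of the 2 tested called higher. Those 2, miR-150 and miR-146a, make up most of the sum in every group. Of the others, miR-142-3p and miR-142-5p lay above background in 1 of 15 lanes each and miR-223 in 0. The cardiomyocyte list summed to 220316 to 312479 in MI and 352362 to 354779 in age-matched controls. In these bulk samples fewer cells of a type and less RNA per cell cannot be told apart, and the part of other cells in the members' changes was not tested. The red blood cell miRNAs, at or below background, summed to 154 to 214 in MI and 275 to 365 in age-matched controls.

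**Figure D2:**
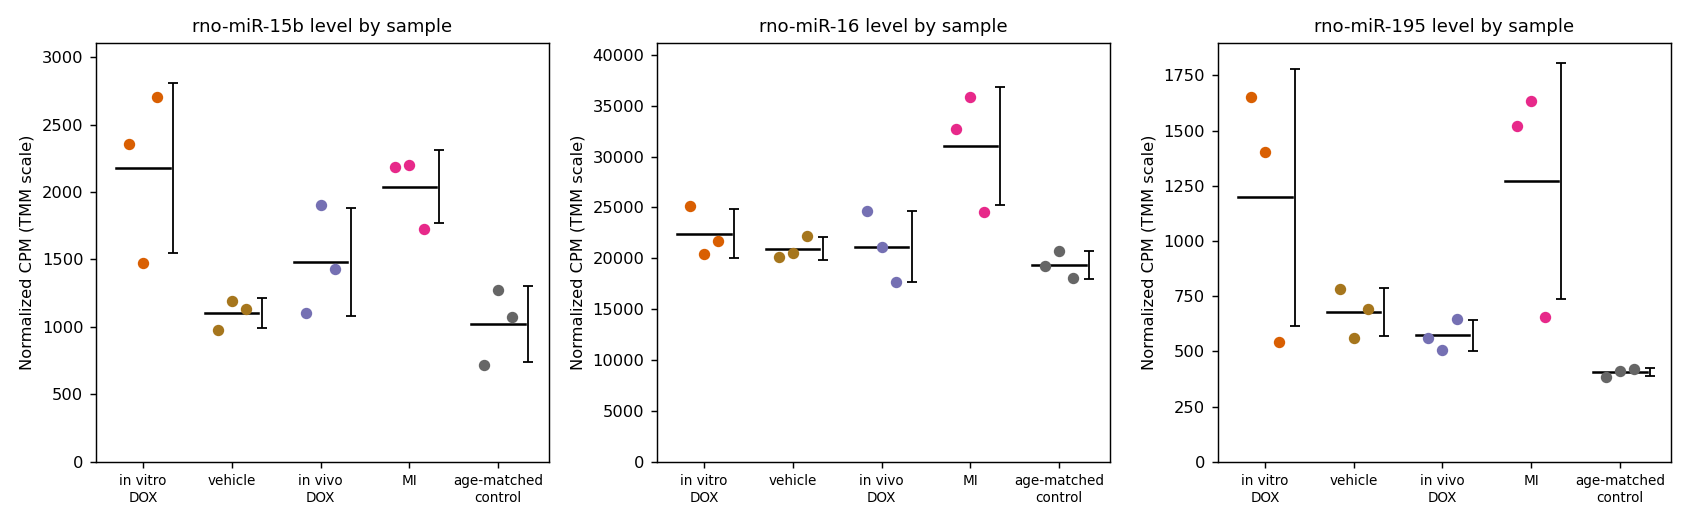
Normalized CPM of miR-15b, miR-16 and miR-195, with 1 point per sample, the horizontal line at the group mean and the bar spanning 1 SD either side (n = 3). The MI points lie above the age-matched control points for all 3 members, and in vitro DOX sample 3 and MI sample 3 are the low points of their groups for miR-195.

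Cardiomyocytes exposed to DOX in culture were compared with vehicle cells. miR-15b rose 1.98-fold after 6 h with DOX, miR-16 was not called, and miR-195 did not pass the test with all samples in. So 1 of 3 members was called, while 30.3% of tested miRNAs were called, 16.5% as higher. The median log2 change over all tested miRNAs was 0.27. That of the 13 negative-control and spike-in probes was 0.55 (range -0.16 to 1.14), so control probes also read higher in in vitro DOX on this scale. The part of this shift in the members' changes was not tested.

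miR-15b had 2358, 1478 and 2703 normalized CPM in in vitro DOX samples, against 977, 1190 and 1135 in vehicle samples. The groups did not overlap, as was so for 46.8% of tested miRNAs, with in vitro DOX sample 2 nearest to vehicle. The means were 2179 ± 632 in in vitro DOX and 1101 ± 110 in vehicle (SD, n = 3 each), a log2 change of 0.99 with an SE of 0.28 (edgeR adjusted p = 0.0107). The call held without in vitro DOX sample 3 (log2 change 0.80, adjusted p = 0.011) and was lost without vehicle sample 1 (0.91, adjusted p = 0.059).

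miR-16 had 25136, 20445 and 21681 normalized CPM in in vitro DOX samples, against 20135, 20552 and 22198 in vehicle samples. The samples of the groups were intermixed. The log2 change was 0.10 with a 95% interval of -0.42 to 0.62 (edgeR adjusted p = 0.754), and its sign followed the lane scaling, which moves all miRNAs together. It was -0.10 with DESeq2 size factors, -0.27 with positive-control scaling and -0.22 with housekeeping scaling, and -0.19 to -0.17 relative to the median of all tested miRNAs under the 4 scalings.

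miR-195 had 1650, 1401 and 543 normalized CPM in in vitro DOX samples, against 782, 562 and 690 in vehicle samples. In vitro DOX samples 1 and 2 lay above all vehicle samples and sample 3 below all of them. With all samples the log2 change was 0.81 with an SE of 0.33 (edgeR adjusted p = 0.0605). Without in vitro DOX sample 3 it was 1.17 with an SE of 0.26 (adjusted p = 0.000186), so this sample decides the call. Without it 69 of the 109 tested miRNAs were called, 37 higher and 32 lower with a median log2 change of 0.39, against 33 with it. The same sample was the lowest of its group for the leukocyte-associated miR-150, which had 32534, 28100 and 4682 normalized CPM in in vitro DOX samples, against 6323, 6831 and 6206 in vehicle samples. The leukocyte list summed to 8058 to 40180 in in vitro DOX and 9968 to 10948 in vehicle, and its part in these results was not tested. miR-150 itself was called higher (log2 change 1.75, edgeR adjusted p = 0.0468), although the groups overlapped. miR-126, the endothelial marker, had 70925 to 92753 in in vitro DOX and 66721 to 70808 in vehicle and was not called.

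Other marker lists also moved in this comparison. The fibroblast list summed to 4458 to 6410 normalized CPM in in vitro DOX and 6548 to 7210 in vehicle, and of its 3 tested miRNAs miR-199a-3p was called higher and miR-21 lower. Of 2 smooth muscle miRNAs, miR-143 was called lower (log2 change -1.34, edgeR adjusted p = 0.00504), and of 5 cardiomyocyte miRNAs, miR-133b was called lower (-1.69, adjusted p = 0.000618). Their part in the members' changes was not tested.

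Cardiomyocytes from rats given repeated DOX injections were compared with age-matched controls. No member was called in edgeR (0 of 3), and 0 of 3 had an unadjusted p under 0.05. DESeq2, and limma on the authors' sum-normalized signal, also called 0 of 3. Calls were few among all miRNAs, at 3.67% of those tested, 2.75% as higher. All 3 estimates were above 0, and the median over all tested miRNAs was 0.00 on the log2 scale. For the 13 negative-control and spike-in probes it was -0.47 (range -1.08 to 0.22).

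miR-15b had 1106, 1906 and 1429 normalized CPM in in vivo DOX samples, against 715, 1271 and 1070 in age-matched controls. Samples 2 and 3 lay above all controls and sample 1 among them. The log2 change was 0.51 with a 95% interval of -0.09 to 1.12 (edgeR adjusted p = 0.254). Without in vivo DOX sample 1 it was 0.69 (adjusted p = 0.0889).

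miR-195 had 561, 507 and 648 normalized CPM in in vivo DOX samples, against 385, 413 and 418 in age-matched controls. The groups did not overlap, as was so for 33.9% of tested miRNAs, but 5 of these 6 lanes were below their background. The log2 change was 0.48 with a 95% interval of -0.30 to 1.27 (edgeR adjusted p = 0.387).

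miR-16 had 24678, 21147 and 17645 normalized CPM in in vivo DOX samples, against 19224, 20764 and 18073 in age-matched controls. In vivo DOX samples 1 and 3 were the highest and the lowest of the 6, so the groups overlapped fully. The log2 change was 0.13 with a 95% interval of -0.39 to 0.65 (edgeR adjusted p = 0.782). Under housekeeping scaling the estimates of all 3 members turned negative, between -0.56 and -0.20, with the median of all tested miRNAs at -0.74. The leukocyte list summed to 13741 to 24383 normalized CPM in in vivo DOX and 5656 to 5868 in age-matched controls, with 0 of the 2 tested called. Most of the sum was miR-150, with means of 14659 and 3904. Near background, miR-223 (215 and 247) and miR-142-3p (137 and 202) were lower in in vivo DOX and miR-142-5p (333 and 244) higher. The part of this list in the members' values was not tested.

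The failing hearts of the 2 kinds were then compared with each other. miR-195 was 2.24-fold lower in in vivo DOX cells than in MI cells, a log2 change of -1.16 with an SE of 0.35 (edgeR adjusted p = 0.0136). miR-16 and miR-15b were not called, with log2 changes of -0.55 (95% interval -1.08 to -0.03, adjusted p = 0.0926) and -0.47 (-1.06 to 0.12, adjusted p = 0.201). The count was 1 of 3 members, with 32.1% of all tested miRNAs called and 13.8% called lower. The 13 negative-control and spike-in probes had a median log2 change of 0.50 (range -0.36 to 2.05).

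For miR-195 the highest in vivo DOX sample, at 648 normalized CPM, was just under the lowest MI sample, at 655. Groups were likewise apart for 38.5% of all tested miRNAs, and the in vivo DOX samples 2 and 3 were below background. The call for miR-195 was lost without in vivo DOX sample 2 (log2 change -1.09, adjusted p = 0.0736), MI sample 1 (-1.03, 0.0574) or MI sample 2 (-0.92, 0.0934). For miR-16 the test was passed without in vivo DOX sample 1 (-0.68, adjusted p = 0.0419) or MI sample 3 (-0.70, 0.0451). This comparison uses the same MI and in vivo DOX samples as the comparisons with age-matched controls. Endothelial miR-126 had 22364 to 39485 normalized CPM in in vivo DOX and 46623 to 131043 in MI. The fibroblast list summed to 2758 to 4767 in in vivo DOX and 9551 to 13398 in MI, and 3 of its 3 tested miRNAs were called lower in in vivo DOX (edgeR adjusted p under 0.05). The part of these cells in the members' values was not tested.

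Whether DOX acted differently on the members in vivo and in culture was tested as the difference of the 2 changes. It was -0.47 for miR-15b (95% interval -1.31 to 0.36, edgeR adjusted p = 0.888), 0.03 for miR-16 (-0.71 to 0.77, adjusted p = 0.957) and -0.33 for miR-195 (-1.37 to 0.71, adjusted p = 0.891). None of the 3 was called by edgeR, by DESeq2 or by limma on the sum-normalized signal, 0 had an unadjusted p under 0.05, and 0.917% of all tested miRNAs were called. The intervals are wide enough to hold a difference as large as the changes themselves, so a call for miR-15b in culture and none in vivo does not show that the responses differ.

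Vehicle cells and age-matched controls were both taken as undamaged, and differ by the labels in the 6 h of culture with saline. 0 of 3 members were called in edgeR and 0 had an unadjusted p under 0.05, with 18.3% of all tested miRNAs called, 8.26% as higher and 10.1% as lower. DESeq2 called 1, and limma on the sum-normalized signal 0. The 13 negative-control and spike-in probes had a median log2 change of -1.04 (range -1.68 to 0.29). miR-195 had 782, 562 and 690 normalized CPM in vehicle samples, against 385, 413 and 418 in age-matched controls, so every vehicle sample was higher, as was so in either direction for 67% of tested miRNAs. The log2 change was 0.73 with a 95% interval of -0.02 to 1.49 (edgeR adjusted p = 0.183), and DESeq2 gave 0.96 (adjusted p = 0.0477). These fits share 1 estimate of the spread over all 15 samples, including the more variable DOX and MI groups. Fitted on the 2 groups alone, miR-195 had 0.79 with an SE of 0.24 (edgeR adjusted p = 0.00219). In that fit 67 of the 109 tested miRNAs were called, 33 higher and 34 lower, on a spread that may be technical. miR-15b and miR-16 overlapped between the groups, with log2 changes of 0.09 (adjusted p = 0.829) and 0.12 (adjusted p = 0.779). Endothelial miR-126 had 66721 to 70808 normalized CPM in vehicle and 20104 to 22102 in age-matched controls, and was called higher (log2 change 1.70, edgeR adjusted p = 0.000447). The fibroblast list summed to 6548 to 7210 in vehicle and 4373 to 4734 in age-matched controls, with 2 of the 3 tested called higher. The leukocyte list summed to 9968 to 10948 in vehicle and 5656 to 5868 in age-matched controls, with 1 of the 2 tested called higher. The part of these cells in the members' values was not tested.

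**Figure D3:**
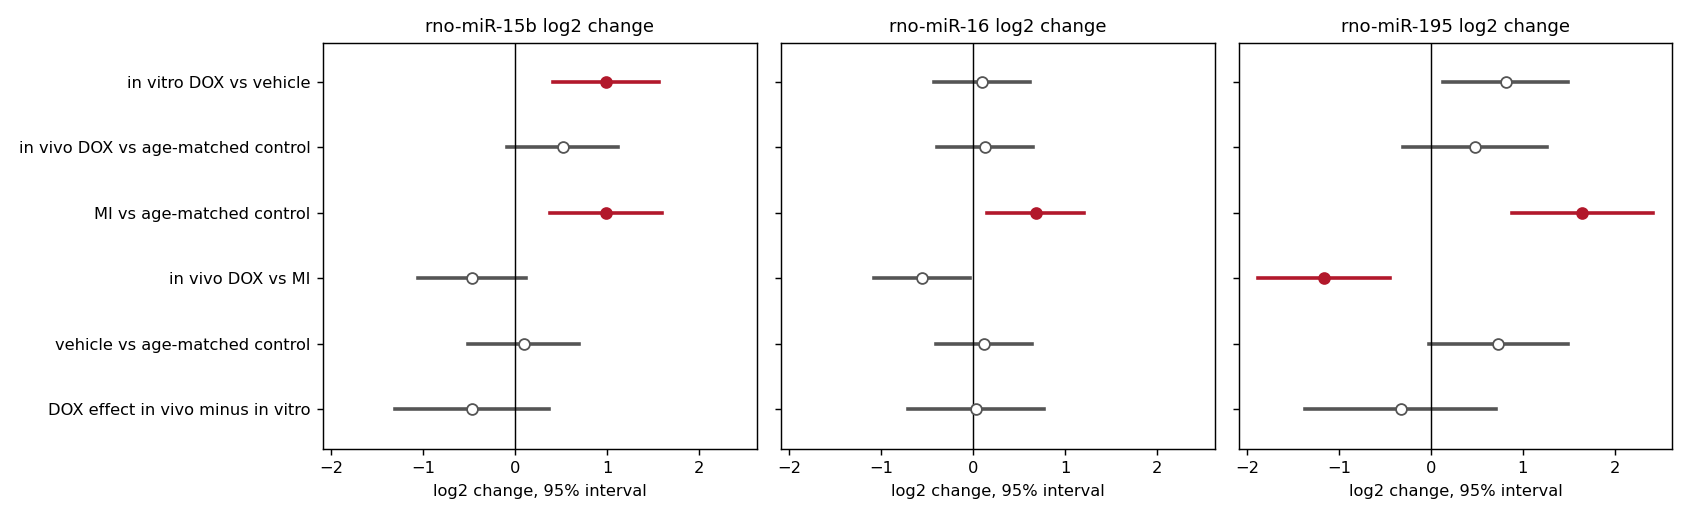
log2 changes of the 3 members in the 6 comparisons with 95% intervals from edgeR, where filled red points have an adjusted p under 0.05. miR-16 is called in MI against age-matched controls alone, miR-15b also in in vitro DOX against vehicle, and miR-195 in MI against age-matched controls and in in vivo DOX against MI.

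Ordered by mean level from low to high, miR-15b ran from age-matched control (1019 normalized CPM) through vehicle (1101), in vivo DOX (1480) and MI (2039) to in vitro DOX (2179). miR-16 ran from age-matched control (19354) through vehicle (20962), in vivo DOX (21157) and in vitro DOX (22421) to MI (31047). miR-195 ran from age-matched control (405) through in vivo DOX (572), vehicle (678) and in vitro DOX (1198) to MI (1271). Neighbours in these orders overlapped, except age-matched control and in vivo DOX for miR-195. The age-matched controls had the lowest mean for all 3 members.

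The ratio of 2 members within a lane does not depend on how lanes are scaled. The 12 ratio tests, 3 ratios in 4 comparisons, used two-sided exact permutation tests, which cannot go below p = 0.1 with 3 against 3. No ratio had an adjusted p under 0.4. The miR-16 count was 10.7, 13.8 and 8.02 times the miR-15b count in in vitro DOX samples, against 20.6, 17.3 and 19.6 times in vehicle samples. The groups did not overlap, and the mean ratio was 1.81-fold lower in in vitro DOX (log2 difference -0.85, exact p = 0.1, adjusted over 12 tests p = 0.4). Without in vitro DOX sample 3 the log2 difference was -0.65. Every in vitro DOX lane had a lower ratio than any vehicle lane. From which hairpins the counted miRNAs came was not tested, and DOX in culture cannot be told apart from its set of lanes.

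In MI samples the miR-16 count was 14.9, 16.3 and 14.2 times the miR-15b count, against 26.9, 16.3 and 16.9 times in age-matched controls. The groups were only just apart, at 16.28 for the highest MI sample and 16.34 for the lowest control (log2 difference -0.37, exact p = 0.1). The size rests on control sample 1, without which the log2 difference was -0.13, and without MI sample 3 it was -0.32. In in vivo DOX samples the ratio was 22.3, 11.1 and 12.3 and overlapped with the age-matched controls (log2 difference -0.43, exact p = 0.3). The highest in vivo DOX ratio came from sample 1, without which the log2 difference was -0.74.

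The miR-195 count was 4.66%, 4.56% and 2.66% of the miR-16 count in MI samples, against 2.003%, 1.989% and 2.313% in age-matched controls. It was 1.83-fold higher in MI without overlap (log2 difference 0.87, exact p = 0.1, adjusted p = 0.4), with a log2 difference of 1.14 without MI sample 3. The miR-195 counts of all 3 age-matched controls lay below lane background, so their shares rest on counts not above it. With the mean of the negative controls subtracted, the range was 2.24% to 4.39% in MI and 0.868% to 1.31% in age-matched controls. The log2 difference was then 1.77, so its size depends on the background. In in vitro DOX the share was 6.57%, 6.85% and 2.50%, against 3.88%, 2.73% and 3.11% in vehicle, with sample 3 again the low one (log2 difference 0.59, exact p = 0.4, and 1.06 without that sample). In in vivo DOX it was 2.27%, 2.40% and 3.67%, which overlapped with the age-matched controls (log2 difference 0.37, exact p = 0.2, and 0.50 without in vivo DOX sample 1). The miR-195 to miR-15b ratio overlapped in all 4 comparisons, with exact p of 0.3 to 0.9.

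**Figure D4:**
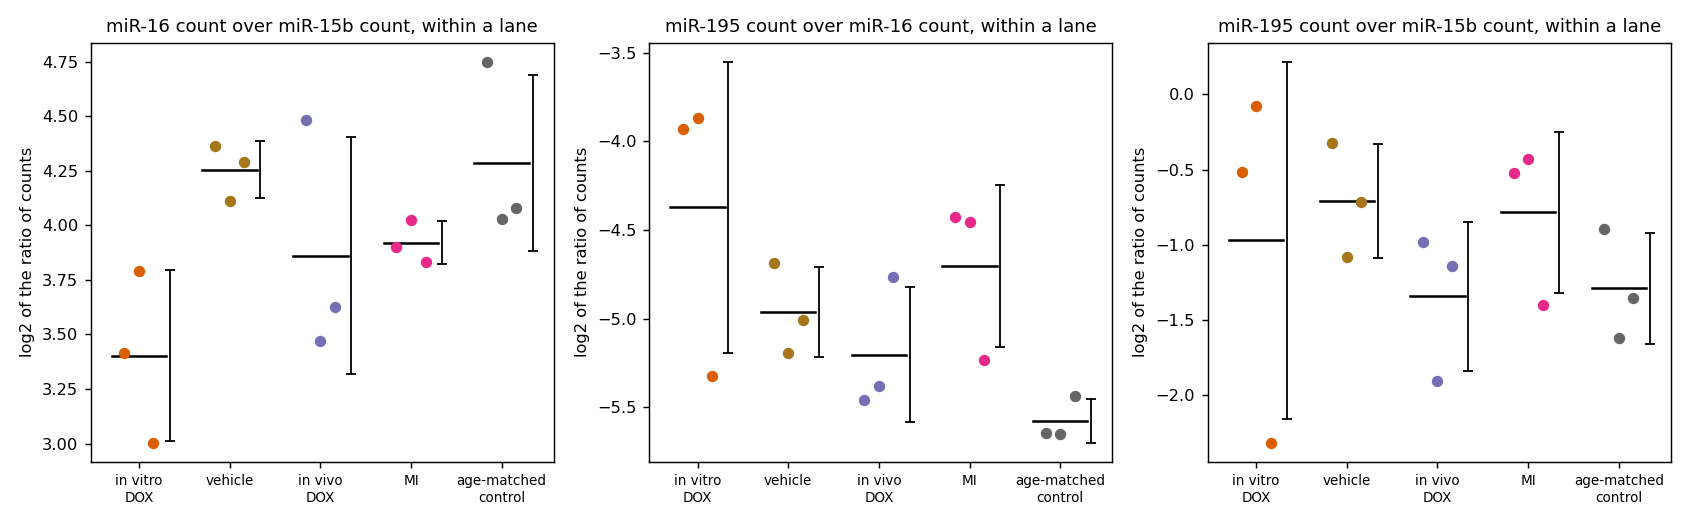
log2 of the within-lane ratio of counts for the 3 pairs of members, 1 point per sample, with the group mean as a line and a bar of 1 SD either side (n = 3). The miR-16 to miR-15b ratio is lower in all in vitro DOX samples than in vehicle, and the miR-195 to miR-16 ratio is higher in all MI samples than in age-matched controls. The miR-195 counts of all age-matched controls lie below lane background.

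How far the members' changes depend on the lane scaling was read beside the median of all tested miRNAs. In MI against age-matched controls that median was -0.03 under TMM, 0.08 under DESeq2 size factors, 1.26 when lanes were scaled by the positive controls and -0.63 when scaled by the 4 housekeeping mRNAs. The log2 change of miR-195 was 1.65, 1.72, 2.97 and 1.13 under these scalings, that of miR-15b 0.98, 1.07, 2.31 and 0.45, and that of miR-16 0.68, 0.77, 1.995 and 0.13. Under housekeeping scaling none of the 3 was called, with adjusted p of 0.0509 for miR-195, 0.318 for miR-15b and 0.808 for miR-16. Calls over all miRNAs split into 17 higher and 24 lower under TMM, 22 and 19 under DESeq2 size factors, 53 and 1 under positive controls and 5 and 32 under housekeeping mRNAs. A lane scaling shifts the members and the median alike, so their distance is nearly fixed by construction. That distance was 1.64 to 1.75 for miR-195, 1.00 to 1.07 for miR-15b and 0.69 to 0.75 for miR-16 on the log2 scale.

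In in vitro DOX against vehicle, miR-15b changed by 0.99, 0.79, 0.70 and 0.68 under the same 4 scalings, and was called under TMM and DESeq2 size factors (adjusted p = 0.0107 and 0.0343) but not under the other 2 (0.428 and 0.175). Its distance from the median, again nearly fixed by construction, was 0.71 to 0.78. Calls over all miRNAs split into 18 higher and 15 lower, 9 and 22, 0 and 1, and 0 and 12 in the same order. The positive controls of the lanes summed to 4229 to 9661 counts in MI, against 10053 to 18360 in age-matched controls, and the housekeeping mRNAs had a geometric mean of 332 to 398 counts in MI and 142 to 293 in age-matched controls. Which scaling is nearest to the amount per cell was not tested.

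**Figure D5:**
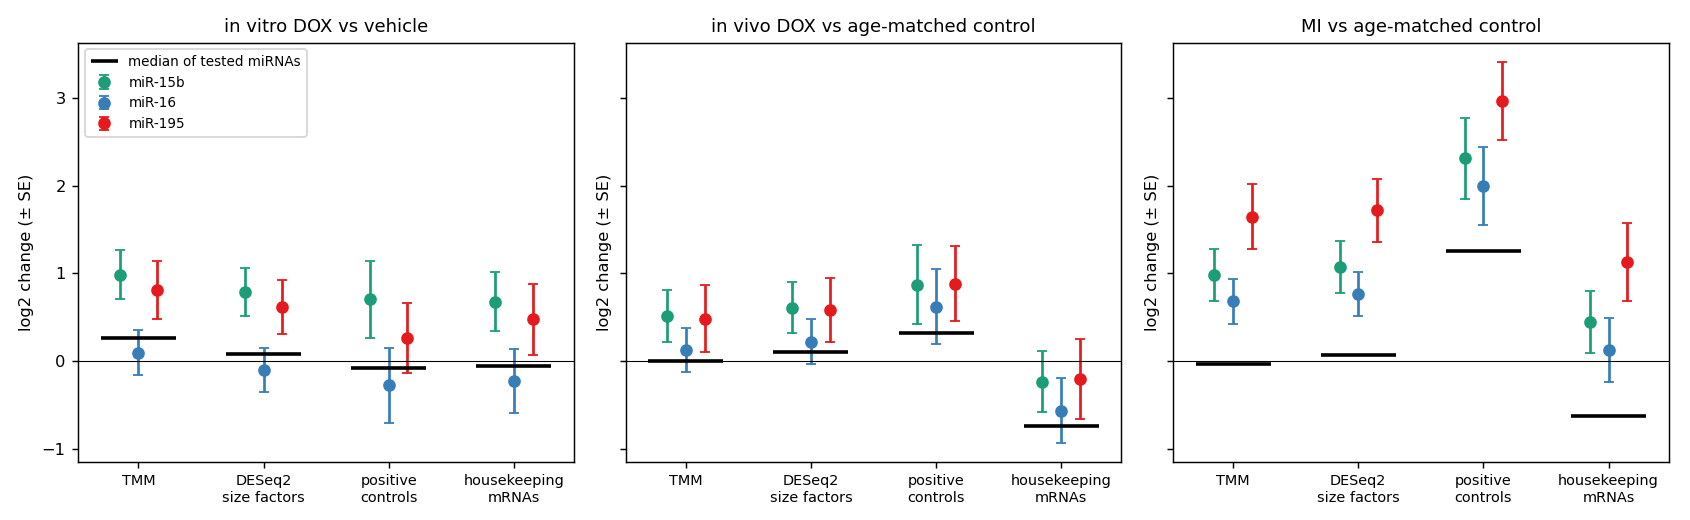
log2 changes (± SE) of the 3 members in 3 comparisons under 4 lane scalings, with a black line at the median of the 109 tested miRNAs. In MI against age-matched controls the members and the median shift together, as a lane scaling moves all miRNAs alike, and all 3 members lie above the median.

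Of the relatives with the same seed, miR-322 was measured well. It had 2542 to 7969 normalized CPM in MI and 1366 to 1568 in age-matched controls, with means of 6005 ± 3008 and 1485 ± 105 (SD, n = 3 each), and rose by 2.02 on the log2 scale (SE 0.39, edgeR adjusted p = 0.000511). It did not overlap between the groups, and without MI sample 3 the log2 change was 2.38 (adjusted p = 2.24e-05). It was also lower in in vivo DOX than in MI (log2 change -1.79, adjusted p = 0.00118), although those groups overlapped. Without in vivo DOX sample 1 that change was -2.26 (adjusted p = 0.000179), and without MI sample 3 it was -2.15 (adjusted p = 9.48e-05). It was higher in vehicle than in age-matched controls (1.19, adjusted p = 0.0306), a call lost when any 1 of these 6 samples was left out (1.13 to 1.32, adjusted p of 0.0653 to 0.105). It was not called in in vitro DOX against vehicle (-0.26, adjusted p = 0.563, and -0.59 without in vitro DOX sample 3) or in in vivo DOX against age-matched controls (0.23, adjusted p = 0.734, and -0.24 without in vivo DOX sample 1).

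miR-497, which neighbours miR-195 on chromosome 10, had 5 to 36 counts, lay above background in 2 of 15 lanes, both of them MI, and was not tested. It passed with 14 counts in MI sample 1, where background was 11.8. It did not pass with 34 counts in vehicle sample 1, where background was 47.2. miR-503, which neighbours miR-322 on chromosome X and has a different eighth base, had 0 to 24 counts, lay above background in no lane and was not tested. Of the 5 family members on the panel, 4 were tested. All 4 rose in MI, with a median log2 change of 1.32, beside 15.6% of all tested miRNAs called higher and a median of -0.03. In in vitro DOX against vehicle 1 of the 4 was called (median 0.46), beside 30.3% of all tested miRNAs and a median of 0.27. In in vivo DOX against age-matched controls 0 of the 4 were called (median 0.36), beside 3.67% of all tested miRNAs and a median of 0.00.

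The miRNAs whose profiles over the 15 samples were most like each member's were found by the root-mean-square (RMS) difference of centred log2 levels among the 108 other tested miRNAs. The nearest to miR-15b were miR-125a-5p (RMS 0.34), miR-139-5p (0.38) and miR-25 (0.38), and its hairpin neighbour miR-16 came in place 4 (0.43). The nearest to miR-16 were miR-93 (0.29), miR-26a (0.30) and miR-181a (0.30), with miR-15b in place 17. The nearest to miR-195 were miR-151 (0.37), miR-132 (0.38) and miR-146a (0.39), with miR-16 in place 11 and miR-15b in place 17. A flat profile such as that of miR-16 lies near other flat profiles, and the points share lanes and scaling, so these values describe the samples and no more.

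The authors' deposited table gives group means after quantile normalization, in which miR-15b had 211 in in vitro DOX and 117 in vehicle (their p = 0.00425). For the same groups the authors' deposited table has 139 and 84.7 for miR-195 (p = 0.201) and 2084 and 1967 for miR-16 (p = 0.116). For MI and age-matched controls the authors' deposited table has 114 and 41.3 for miR-195 (p = 0.0136), 2917 and 1887 for miR-16 (p = 0.0649) and 168 and 116 for miR-15b (p = 0.0917). For in vivo DOX and age-matched controls the authors' deposited table has 61.0 and 41.3 for miR-195 (p = 0.0236), 197 and 116 for miR-15b (p = 0.15) and 1887 in both groups for miR-16 (p = 1). The directions of these differences were those of the edgeR estimates for miR-15b and miR-195, while the miRNAs past an unadjusted 0.05 differed: miR-195 but not miR-15b or miR-16 in MI, and miR-195 in in vivo DOX. In in vitro DOX, miR-195 was past it in edgeR (unadjusted p = 0.0203) but not in the authors' deposited table. In the authors' deposited table, 11.99% of listed miRNAs had such a p for MI, 9.76% for in vivo DOX and 14.5% for in vitro DOX.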

How the data were processed

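Per the file headers, the authors deposited an nCounter worksheet of 15 lanes. The deposited first sheet holds barcode counts per probe, which are whole numbers in every probe row. In a deposited second sheet of expected counts the authors had corrected probe background, which touched none of the 3 members. A deposited sheet of signal was scaled by the authors to the positive controls and the miRNA sum. The authors' tables of 3 comparisons give signal, as group means after quantile normalization, and the p-value of their test, made with software not given in the sources used here. A further table, of groups other than these, was left out.

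Uncorrected counts of all 109 tested miRNAs, TMM-scaled, entered a robust quasi-likelihood fit in edgeR 4.0.16 (R 4.3.3) with the 15 samples and a mean for each group. P-values were adjusted by Benjamini-Hochberg within each of 6 comparisons, and called under 0.05. DESeq2 1.42.0 on the counts, and limma 3.58.1 (pseudocount 1) on the authors' sum-normalized signal, so that tool and input both differ, were alternatives, besides other scalings, filters and left-out samples. Exact tests used scipy 1.17.1. Lanes held 36977 to 137746 miRNA counts, and precision is limited most for miR-195, with 14 to 147 counts. Deviations of same-number samples of 2 groups had correlations of -0.259 to 0.237, and in the main fit numbers only name samples. With 3 samples per group this check cannot exclude a pairing. Named miRNAs are the members, panel miRNAs with their seed, miR-503 and the 3 tested miRNAs nearest to each member in profile, besides fixed marker lists. The miR-322 values without single samples were added after seeing the data, and miR-150 was added to the text after its values were seen. The members and lists were chosen with earlier results of these data known.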

Additional observations from a re-analysis of the deposited data

How the results depend on the processing

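Besides leaving out single samples, 12 alternatives were run (11 for miR-195, which has no value where only miRNAs above background in every lane are kept). In MI against age-matched controls the log2 change of miR-195 was above 0 under 11 of 11, and its call was kept under 10. That of miR-15b was above 0 under 12 of 12 with the call kept under 10, and that of miR-16 under 12 of 12 with the call kept under 7. Values below are log2 changes, and causes were not tested.

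In MI against age-matched controls, housekeeping scaling left no call, with 0.45 for miR-15b, 0.13 for miR-16 and 1.13 for miR-195. The call was also lost with the filter of all lanes for miR-15b (0.83) and miR-16 (0.53), and for miR-16 with background subtracted (0.56) and the authors' corrected counts (0.65). With the replicate number as a block miR-16 had 0.67 (adjusted p = 0.0599), and the block changed no other member's call. Leaving out 1 sample gave 0.83 to 1.17 for miR-15b and 0.57 to 0.82 for miR-16.

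In in vitro DOX against vehicle, miR-15b was no longer called under positive-control scaling (0.70), housekeeping scaling (0.68), no filter (0.46) or a fit of the compared groups only (0.87), and gave 0.80 to 1.20 without 1 sample. miR-16 turned negative under DESeq2 size factors (-0.10), DESeq2 (-0.10), positive controls (-0.27), housekeeping (-0.22), no filter (-0.46), the filter of all lanes (-0.056) and the compared groups only (-0.027). miR-195 gave 0.50 to 1.17 without 1 sample.

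In in vivo DOX against age-matched controls, housekeeping scaling gave -0.23 for miR-15b, -0.56 for miR-16 and -0.20 for miR-195, and background subtraction -0.091 for miR-16. There miR-322 gave -0.24 to 0.48 without 1 sample. In in vivo DOX against MI, positive-control scaling added calls for miR-15b (-1.44) and miR-16 (-1.37). miR-16 was also called with background subtracted (-0.65), DESeq2 (-0.54) and limma on the authors' sum-normalized signal (-0.64). Without 1 sample, miR-16 gave -0.70 to -0.44 and miR-195 -1.47 to -0.92.

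In vehicle against age-matched controls, miR-195 was called under positive controls (1.52), no filter (1.42), DESeq2 (0.96) and the compared groups only (0.79), and housekeeping gave -0.30 for miR-15b and -0.30 for miR-16. The difference of the DOX effects turned positive for miR-15b and miR-195 under positive controls (0.17 and 0.62) and no filter (0.26 and 0.52). It turned negative for miR-16 under housekeeping (-0.34) and background subtraction (-0.16), and lay between -0.094 and 0.15 without 1 sample.

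Without in vitro DOX sample 3, in vivo DOX sample 1 and MI sample 3 together, a set known from earlier results to stand apart, calls were gained for miR-195 in vitro (1.17), miR-15b in in vivo DOX against age-matched controls (0.67), miR-16 in in vivo DOX against MI (-0.82) and miR-195 in vehicle against age-matched controls (0.73), and the difference of DOX effects for miR-16 was -0.12. Calls over all tested miRNAs then numbered 83 of 109 in vitro and 53 in vivo, against 33 and 4 with all samples, and adjusted p from that fit cannot be set beside the others. Over all alternatives and left-out samples, called miRNAs numbered 1 to 83 in in vitro DOX against vehicle, 0 to 53 in in vivo DOX and 10 to 68 in MI against age-matched controls, 13 to 72 in in vivo DOX against MI, 4 to 67 in vehicle against age-matched controls and 0 to 18 for the difference of DOX effects, against 33, 4, 41, 35, 20 and 1 in the fit reported. These counts are out of 109 tested miRNAs, except 58 with the filter of all lanes and 420 with no filter. The lowest counts of 10, 13 and 0, for MI against age-matched controls, in vivo DOX against MI and the difference, came with 58 tested. In the fit reported, calls split into 3 higher and 1 lower in in vivo DOX against age-matched controls (6 and 1 under DESeq2 size factors, 5 and 0 under positive controls, 0 and 29 under housekeeping), 20 and 15 in in vivo DOX against MI (20 and 16, 0 and 22, 8 and 11) and 9 and 11 in vehicle against age-matched controls (9 and 1, 16 and 0, 3 and 25).

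With background subtracted, the miR-16 to miR-15b ratio in in vivo DOX against MI was 0.040 and the miR-195 to miR-15b ratio in in vivo DOX against age-matched controls 0.31, both of turned sign. Without 1 sample these differences ran from -0.37 to 0.13 and from -0.23 to 0.23, and the miR-195 to miR-15b ratio in vitro from -0.71 to 0.41.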
